A study of Arabidopsis thaliana with 9 samples.

Results

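Aquaporins are channel proteins that let water and small uncharged solutes cross membranes, and the 35 genes described here are the listed aquaporin genes of Arabidopsis thaliana. They were chosen by gene identifier and comprise 13 plasma membrane intrinsic proteins (PIP), 10 tonoplast intrinsic proteins (TIP), 9 NOD26-like intrinsic proteins (NIP) and 3 small basic intrinsic proteins (SIP). All 35 were found in the bulk RNA table of 33550 genes and in the RefSeq gene table, whose symbols or synonyms name each of them as a member of its subfamily. Names are written with a hyphen, as UniProt does, so that PIP1-1 is the gene that RefSeq's synonyms give as PIP1;1. Of the 35, 32 were listed in the cluster tables of 23241 genes. TIP3-1 (AT1G73190), TIP5-1 (AT3G47440) and NIP4-1 (AT5G37810) were not listed there. Accessible regions overlapped 33 of the 35 genes, in 34 regions of 20803.

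PIPs sit in the plasma membrane and carry water into and out of the cell, and PIP1 proteins often need a PIP2 partner to reach that membrane. TIPs sit in the vacuole membrane and also pass ammonia, urea or hydrogen peroxide, depending on the member. NIPs carry boric acid and metalloids such as arsenite, and SIPs are found in the endoplasmic reticulum. In roots, PIPs and TIPs make up much of the path by which water crosses cells between the soil and the xylem, and the boric acid channel NIP5-1 serves boron uptake.

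The plants were Col-0 seedlings, and the labels name no treatment or transgene. Nuclei sorted by flow cytometry from chopped roots of 7-day-old plants gave 5 RNA libraries and 2 accessibility (ATAC) libraries, deposited as 1 average per cluster over the pooled nuclei, in 21 numbered clusters. A table of whole-cell averages had 20 clusters and lacked cluster 14, and the labels say nothing of how those cells were grown or prepared. For bulk RNA, 6-day-old plants gave 2 libraries, of which 1 was made from intact tips according to the protocol, though its title names the whole root. The other, from plants of the same age, was made from root tip protoplasts, which are cells freed from their walls. The younger plants grew in continuous light and cooler than the older ones, which had a day and night cycle. No value has a replicate error, so the differences describe these libraries and tables, and where 2 clusters or genes lie close together their order cannot be told from noise. Neither depth nor the size of any cluster is known from the files used here. Levels in the cluster tables are averages per 10000 units of RNA in a nucleus or cell. The nucleus libraries used a kit that reads the 3' end, per the labels' protocols, so these levels are compared between clusters for 1 gene, 1 sum or 1 share, and genes are ranked against each other by FPKM, which is per length.

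Clusters are called after a cell type where 3 or more markers of a list were highest there. On that rule nucleus clusters 1 and 2 were root hair-like, cluster 6 was non-hair-like, cluster 14 was suberized endodermis-like and cluster 16 was endodermis-like, with 10 of 10 Casparian strip and endodermis markers. Cluster 6 held 3 of 6 non-hair markers (GL2, CPC and XTH17), while ABCB4 was highest in cluster 4 and WER in cluster 7. Its summed non-hair marker level was the highest, at 31.0, against 10.0 in cluster 4. The stele marker WOL was highest in cluster 6 too, at 6.91. Clusters 17 and 19 were phloem-like, cluster 18 pericycle-like and cluster 21 both xylem-like and stele-like, while clusters 9 and 10 held the DNA replication and mitosis markers. Clusters 3, 4, 5, 7, 8, 11, 12, 13, 15 and 20 had no name. Cluster 12 held 1 of 3 cortex markers, the single one past 0.5 per 10000, and cluster 13 had a summed endodermis marker level of 17.9, against 315 in cluster 16 and 8.30 in cluster 15. The summed suberized endodermis marker level was 16.4 in cluster 15, second to 67.8 in cluster 14, and ASFT alone was at 12.4 in cluster 15.

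Aquaporin RNA was unevenly spread over the nuclei. The summed level of the listed aquaporins was highest in the non-hair-like cluster 6, at 194.5 per 10000, then in cluster 12 at 159.9 and cluster 15 at 143. It was lowest in the suberized endodermis-like cluster 14, at 17.7, and also low in cluster 9 (21.1) and the phloem-like cluster 19 (24.2). The highest sum was 10.96 times the lowest. Of the 32 listed members, 26 reached 0.5 per 10000 in their highest nucleus cluster, comprising 12 of 13 PIPs, 6 of 8 listed TIPs, 5 of 8 listed NIPs and 3 of 3 SIPs. Among all genes, 56% reached that floor. Of those 26 members, 9 were highest in cluster 6, where 4.55% of all genes past the floor were highest, 4 were highest in cluster 15, against 2.8% of all genes, and 1 in cluster 12, against 2.39%.

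**Figure D1:**
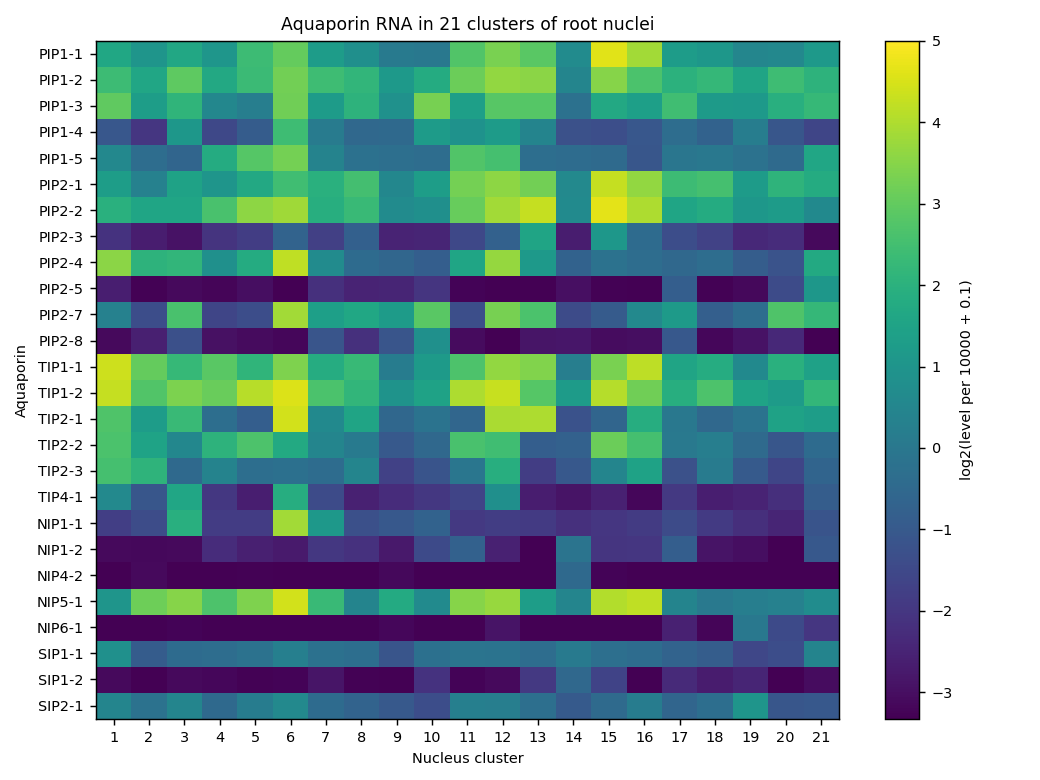
Level of the 26 aquaporins that reached 0.5 per 10000 (rows) in the 21 clusters of root nuclei (columns), as log2 of the level plus 0.1, from pooled averages with no replicates. Most PIP and TIP rows are brightest in clusters 1, 6, 12, 13, 15 or 16, while NIP4-2 stands out in cluster 14 and NIP6-1 in cluster 19.

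Among the PIP1 genes, PIP1-1 (AT3G61430) was highest in cluster 15, at 24.6, followed by the endodermis-like cluster 16 at 14.2 and cluster 12 at 9.88. Its median over the 21 clusters was 2.30 and its lowest value 0.897, in cluster 10. PIP1-2 (AT2G45960), which contributes to the water permeability of roots, was more even, from 12.5 in cluster 12 and 11.6 in cluster 13 to 1.27 in cluster 14, with a median of 4.9997. PIP1-3 (AT1G01620) was highest in the mitosis cluster 10, at 9.69, and nearly as high in cluster 6 (9.12) and the root hair-like cluster 1 (7.75). The remaining PIP1 genes were highest in the non-hair-like cluster. PIP1-4 (AT4G00430) was at 5.24 in cluster 6 and 2.29 in the next, cluster 10. PIP1-5 (AT4G23400) was at 9.55 in cluster 6, 6.93 in cluster 5, 6.61 in cluster 11 and 0.365 in cluster 16, where PIP1-1 was high.

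The PIP2 genes, water channels that work without a PIP1 partner, likewise differed in their highest cluster. PIP2-1 (AT3G53420) was at 19.3 in cluster 15, 12.5 in cluster 16 and 11.8 in cluster 12, and at 1.16 in the root hair-like cluster 2. PIP2-2 (AT2G37170) was at 25.3 in cluster 15, 19.4 in cluster 13, 15.6 in cluster 16 and 13.9 in cluster 6. Its neighbour PIP2-3 (AT2G37180) was highest in clusters 13 (2.78) and 15 (2.01). These neighbours are very similar genes, so reads could be shared between them and both values are uncertain. PIP2-4 (AT5G60660) was instead high in the non-hair-like and root hair-like clusters, at 18.4 in cluster 6 and 11.7 in cluster 1, with 12.7 in cluster 12 and 0.693 in cluster 16. PIP2-7 (AT4G35100) was at 14.1 in cluster 6, 9.81 in cluster 12 and 7.22 in cluster 10, but at 0.292 in cluster 5 and 0.237 in cluster 4.

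PIP2-5 and PIP2-8 each had 1 leading nucleus cluster. PIP2-5 (AT3G54820) was at 2.002 in the xylem-like cluster 21, 4.375 times its value of 0.458 in the next, cluster 17, and was listed at 0 in clusters 6, 12, 13 and 16. PIP2-8 (AT2G16850) was at 1.71 in the mitosis cluster 10 and at 0.394 in cluster 17, a ratio of 4.34. These were the 2 members, of the 22 at 1 per 10000 or more, that stood at least 4-fold above every other cluster, while 11.3% of all genes at that level did so. With 0.1 per 10000 added to each level, 0 members did. In whole cells 0 of 21 members at 1 per 10000 or more did, against 6.85% of genes. PIP2-5 was below that minimum there, at 0.841 in cluster 21 and 0.134 in cluster 17, a ratio of 6.28. PIP2-8 did not exceed 0.0829 in whole cells and was listed at 0 in cluster 10. PIP2-6 (AT2G39010) did not pass 0.288 in any nucleus cluster.

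Of the vacuolar channels, TIP1-1 (AT2G36830) was highest in the root hair-like cluster 1, at 20.6, followed by cluster 16 at 18.0, and lowest in cluster 9 at 1.02. TIP1-2 (AT3G26520) was at 23.4 in cluster 6, 19.5 in cluster 12, 19.1 in cluster 1 and 17.3 in cluster 5, and did not drop below 1.82. TIP2-1 (AT3G16240), a carrier of ammonia as well as water, had its 3 highest values in clusters 6 (21.3), 13 (15.5) and 12 (15.1), and was at 0.552 in cluster 15 and 0.462 in cluster 5. TIP2-2 (AT4G17340) was at 8.71 in cluster 15, 6.33 in cluster 5, 6.175 in cluster 1, 6.066 in cluster 11 and 5.797 in cluster 16. It was at 5.41 in cluster 12, 3.19 in cluster 6 and 0.458 in cluster 13, with a median of 1.27. In nuclei it was thus high in clusters 15 and 5, where TIP2-1 was low. Both were high in cluster 12 and above their medians in cluster 1. Whole-cell cluster 15 lacked this contrast, with TIP2-1 at 56.3 (median 21.47) and TIP2-2 at 0.984 (median 0.964). In whole-cell cluster 5 TIP2-1 was below its median, at 14.1, and TIP2-2 above its median, at 3.857.

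TIP2-3 (AT5G47450), which also carries ammonia, was highest in the root hair-like clusters 1 (5.68) and 2 (4.12), with 3.65 in cluster 12. TIP4-1 (AT2G25810) was at 3.57 in cluster 6 and 2.95 in cluster 3, which had no name, and at 0.0109 in cluster 16. In the root hair-like clusters 1 and 2 it was at 1.42 and 0.373. The seed gene BETA-TIP (AT1G17810) and the pollen gene TIP1-3 (AT4G01470) were listed at 0 in all 21 nucleus clusters.

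The NIPs ranged from a gene past the floor in all 21 nucleus clusters to genes near 0 in most of them. The boric acid channel gene NIP5-1 (AT4G10380) was at 21.4 in cluster 6, 18.5 in the endodermis-like cluster 16, 16.5 in cluster 15 and 13.03 in cluster 12. It was at 1.93 in the root hair-like cluster 1 and 8.77 in cluster 2, and between 0.923 and 1.56 in clusters 8, 10, 14, 17, 18, 19, 20 and 21. NIP1-1 (AT4G19030), a channel for arsenite, was at 14.3 in cluster 6, 3.72 in cluster 3, 2.04 in cluster 7 and at or below 0.508 in every other cluster. Its ratio of 3.85 to the next cluster put it just under the 4-fold mark. NIP6-1 (AT1G80760), a boric acid channel of shoot nodes, was at 0.906 in the phloem-like cluster 19 and 0.269 in cluster 20, and listed at 0 in 12 clusters.

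NIP1-2 (AT4G18910) was at 0.819 in cluster 14 and 0.493 in cluster 11. NIP4-2 (AT5G37820), known from pollen, was at 0.618 in cluster 14 and at or below 0.0154 elsewhere. NIP2-1 (AT2G34390) was listed at 0 in every nucleus cluster, and NIP3-1 (AT1G31885) and NIP7-1 (AT3G06100) did not exceed 0.0909 and 0.0217. Among the SIPs, SIP1-1 (AT3G04090) was at 1.72 in cluster 1 and 0.24 in cluster 19, and SIP2-1 (AT3G56950) was at 1.92 in cluster 19 and 0.294 in cluster 10. SIP1-2 (AT5G18290) was at 0.596 in cluster 14 and at or below 0.221 elsewhere.

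Taken by subfamily, PIPs, TIPs and NIPs had their highest sum in the same nucleus cluster. In cluster 6 the PIP sum was 93.7 per 10000, the TIP sum 62.5 and the NIP sum 35.7. The next PIP sums were 87.5 in cluster 15 and 87.0 in cluster 12, whereas the next TIP sum was 59.5 in the root hair-like cluster 1 and the next NIP sum 18.8 in cluster 16. The TIP share of the aquaporin sum was highest in the root hair-like clusters 1 (58.5%) and 2 (47.2%) and in cluster 4 (43.6%). The PIP share was highest in the mitosis cluster 10, at 74.9%, and was 36.3% in cluster 1. NIPs made up 2.18% of the sum in cluster 1 and 18.4% in cluster 6. Without TIP1-2 the highest TIP sum was in cluster 1, at 40.4.

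The range over clusters differed between subfamilies. The highest sum was 31.6 times the lowest for NIPs, 15.1 times for TIPs, 11.3 times for PIPs and 4.60 times for SIPs, whose sum ran from 0.658 in cluster 20 to 3.03 in cluster 1. A specificity index, which is 0 for an even gene and 1 for a gene in a single cluster, had a median of 0.824 over the 26 members past the floor and 0.718 over all 13016 genes past it. By subfamily its median was 0.966 for 5 NIPs, 0.822 for 12 PIPs, 0.765 for 6 TIPs and 0.605 for 3 SIPs. Of those 5 NIPs, 3 stayed below 1 per 10000, and NIP5-1 had an index of 0.723.

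**Figure D2:**
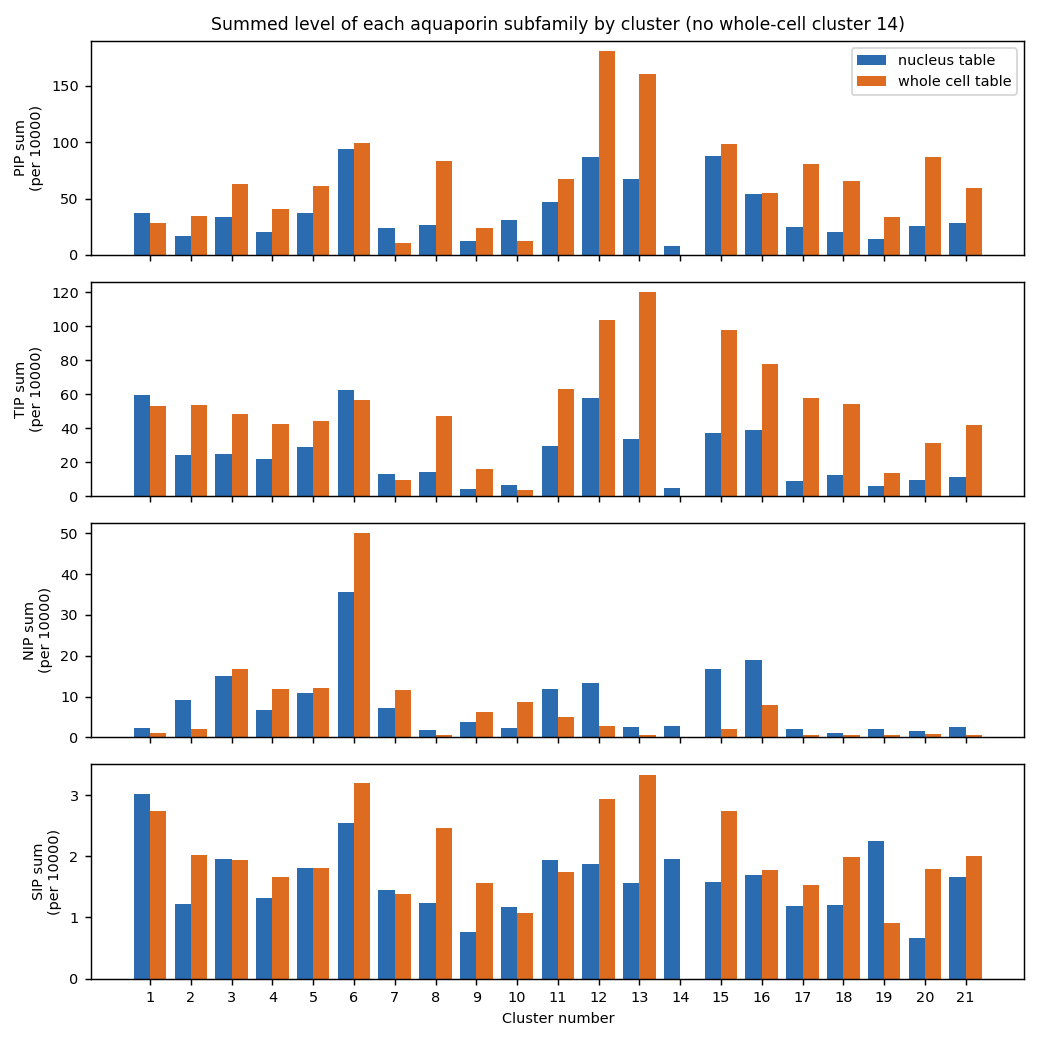
Summed level per 10000 of the listed PIP, TIP, NIP and SIP genes (rows of bars) by cluster number, for nuclei (blue) and whole cells (orange), 1 pooled value per bar. In nuclei the PIP, TIP and NIP bars peak in cluster 6, at 93.7, 62.5 and 35.7, and in whole cells the PIP bars peak in cluster 12 at 181.0 and the TIP bars in cluster 13 at 120.1.

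Patterns of single genes were compared in pairs. Over the 21 nucleus clusters, Pearson's r of log2(level + 0.1) had a median of 0.29 for 83 pairs within a subfamily and 0.34 for 148 pairs between subfamilies, among the 22 members at 1 per 10000 or more. In the whole-cell table the medians were 0.44 and 0.19, so the order of these values differed between tables. The points share clusters and scaling, and these values are descriptions. The closest pair in nuclei was PIP1-1 and PIP2-2, with r = 0.91, and 0.75 in whole cells. PIP2-4 and TIP4-1, of different subfamilies, had r = 0.83 and 0.79. TIP1-2 and TIP2-2 had 0.88 in nuclei and 0.44 in whole cells, and PIP2-5 and SIP2-1 had -0.54 and -0.57. PIP2-5 passed 0.5 per 10000 in 1 cluster of each table, so most of its points lie near 0. PIP2-8, which is counted in the whole-cell medians, did not exceed 0.0829 in whole cells.

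The whole-cell table asked the same of RNA from cells with their cytoplasm. Of its 20 clusters, 16 were most like the nucleus cluster of the same number, and clusters 10, 11, 15 and 19 were more like another one. Aquaporins took more of the RNA in whole cells: their summed mean was 128.1 per 10000 over 20 clusters, against 71.98 over 21 in nuclei. That is a ratio of 1.78, with nucleus cluster 14, the lowest at 17.7, in the nucleus mean only. The ratio was 2.13 for TIPs, 1.77 for PIPs, 1.25 for SIPs and 0.879 for NIPs. Of 20 members at 0.5 or more in either mean, 6 were at least 2-fold higher in whole cells and 1 was lower, while 20.2% of 6546 genes were higher and 43.6% lower. The median log2 ratio was 0.87 for the members and -0.67 for all genes, so centred on the median gene 11 members were higher, against 32.3% of genes, and 1 lower, against 29.5%.

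TIP2-1 had the largest ratio, with means of 24.5 in whole cells and 4.04 in nuclei, a 5.95-fold difference after 0.1 was added. It was at least 2-fold higher in 18 of 20 clusters of the same number. In cluster 15 it was at 56.3 in whole cells and 0.552 in nuclei, and in cluster 11 at 22.5 and 0.575, whereas in cluster 6 the values were 31.3 and 21.3. Whole-cell clusters 15, 11 and 10 were most like nucleus clusters 16, 5 and 9, where TIP2-1 was at 3.53, 0.462 and 0.583. NIP1-1 was 4.32-fold higher, with 44.8 and 14.3 in cluster 6, 9.50 and 0.180 in cluster 4, and 7.27 and 0.508 in cluster 10, whose most similar nucleus cluster, 9, had 0.393. Summed root cap marker levels in whole cells were 3.55 in cluster 10, 2.55 in cluster 7, 1.25 in cluster 4 and 1.09 in cluster 9, where NIP1-1 was at 5.15 or more, and at most 0.877 elsewhere. It was 0.0307 in cluster 6, 0.0065 in cluster 3 and 0.104 in cluster 5, where NIP1-1 was also high, and 1.83 in nucleus cluster 7. The defining marker SMB was highest in whole-cell cluster 10. The part of root cap cells in the NIP1-1 values was not tested.

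PIP2-7 was 3.40-fold higher in whole cells, PIP1-4 3.17-fold, PIP2-1 3.01-fold and TIP1-1 2.30-fold. PIP2-1 was at 37.8 in whole-cell cluster 13, 37.4 in cluster 15, 36.1 in cluster 12 and 29.2 in cluster 8, and at 0.748 in cluster 10. NIP5-1 was the member that was lower, 3.58-fold, with a mean of 1.79 in whole cells and 6.66 in nuclei. It was at least 2-fold lower in 19 of 20 clusters, for example at 7.39 and 18.5 in cluster 16 and at 5.20 and 21.4 in cluster 6. PIP1-5 was 2-fold lower in 13 clusters, with means of 1.14 and 2.22. NIP6-1, at 0.906 in nucleus cluster 19, did not exceed 0.00937 in whole cells, and NIP4-2 was listed at 0 there.

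**Figure D3:**
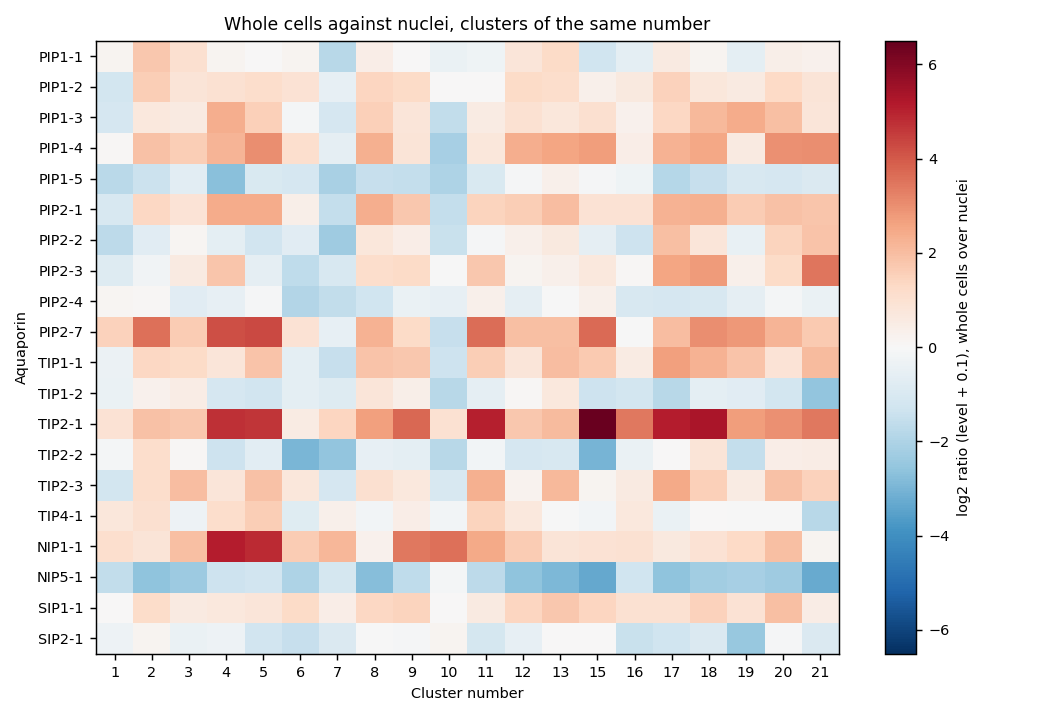
Log2 ratio of whole cells over nuclei, with 0.1 per 10000 added to each level, for the 20 aquaporins at 0.5 or more in either mean (rows) in the 20 cluster numbers both tables share (columns). TIP2-1 is red (higher in whole cells) in nearly every column and NIP5-1 blue in nearly every column, and most PIP rows are blue in clusters 7 and 10.

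The cluster with the highest level differed between tables for most members. Of the 21 members past the floor in both, 4 were highest in the same cluster number, namely PIP1-2, PIP2-3, PIP2-5 and NIP1-1, whereas 37.4% of all genes past both floors were. The median Spearman rho over the 20 shared clusters was 0.60 for these members and 0.58 for all such genes. In whole cells 22 members were past the floor, as were 31.4% of all genes. Of the 22, 7 were highest in cluster 12, where 4.72% of genes were, 6 in cluster 13, where 4.03% of genes were, and 2, NIP1-1 and SIP1-1, in cluster 6, where 2.36% were. Those highest in cluster 12 included PIP1-2 (29.4), PIP2-7 (38.0) and TIP1-2 (20.9), and those highest in cluster 13 included TIP2-1 (65.2), TIP1-1 (42.3) and PIP2-2 (29.6). PIP2-4 was highest in whole-cell cluster 1, at 12.8, close to its 11.7 in nucleus cluster 1. PIP2-6 reached 1.58 in whole-cell cluster 12, the cluster number of its highest nucleus value.

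In the bulk libraries the family made up 2.25% of the summed FPKM of intact root tips and 1.75% of that of protoplasts. In intact tips TIP1-2 ranked 6 among all genes, at 3531 FPKM, and TIP1-1 ranked 8, at 2998. They were followed among the members by PIP1-1 (1854), PIP1-2 (1784), PIP2-1 (1748), TIP2-2 (1629), PIP2-2 (1604) and PIP2-7 (1107). PIP1-3, TIP2-1, PIP1-5 and PIP2-4 were between 636 and 862, and NIP1-1 was the highest NIP at 423, against 70.8 for NIP5-1. The 13 members below 5 FPKM in both libraries included the seed and pollen genes. TIP1-3 was at 0.903 and 2.49 FPKM in intact tips and protoplasts, TIP3-1 at 0.108 and 2.13, BETA-TIP at 0.164 and 0.509 and NIP7-1 at 0.0264 and 0.0658. TIP5-1 was listed at 0 and at 0.171, NIP4-1 at 0 in both, and NIP4-2 at 0.0407 and 0.

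The bulk comparison asked which transcripts differed once walls were digested. The floor of 5 FPKM in 1 of the libraries was passed by 22 members, of which 7 were 2-fold or more lower in protoplasts and 2 higher, while 30.3% of 15110 nuclear genes were lower and 11.4% higher. The members' median log2 ratio was -0.64 and that of all genes -0.46. Centred on the median gene, 3 members were lower, against 18.8% of genes, and 5 higher, against 17.4%, so the split among the members turned with the centring. In bulk RNA, fewer cells of a type and less RNA per cell cannot be told apart.

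TIP2-2 differed most: intact tips had 1629 FPKM and protoplasts 249.9, a level 6.497-fold lower after 1 FPKM was added. NIP1-2 was at 8.11 and 1.24, 4.07-fold lower, and PIP2-3 at 169 and 56.1, 2.99-fold lower. These are the 3 members that also were 2-fold lower after centring. The others 2-fold lower as deposited were PIP2-2 (631 FPKM in protoplasts, 2.54-fold), TIP1-2 (1407, 2.51-fold), PIP1-1 (810.4, 2.29-fold) and PIP1-5 (725 and 321, 2.26-fold). PIP1-4 was at 157 and 338 FPKM, 2.14-fold higher, and PIP2-6 at 12.1 and 26.2, 2.07-fold higher. NIP1-1, at 423 and 808, PIP2-7, at 1107 and 1642, and TIP2-1, at 805 and 1213, were also above 2-fold after centring. The other members past the floor lay within 2-fold either way. Among the abundant ones TIP1-1 had 1776 FPKM in protoplasts, PIP1-2 1232, PIP1-3 1141 and PIP2-1 1039, against intact values of 2998, 1784, 862 and 1748. PIP2-4 was at 636 and 373, TIP2-3 at 256 and 308, and TIP4-1 at 140.1 and 130.05. NIP5-1 was at 70.8 and 94.2, SIP1-1 at 124.8 and 159, and SIP2-1 at 84.9 and 47.5. Below the floor PIP2-8, the mitosis cluster gene, was at 3.45 and 0.413, and PIP2-5, the xylem-like cluster gene, at 0.747 and 2.09.

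Cell type markers also differed between the bulk libraries. Of 5 pericycle markers, 3 were past the floor and all 3 were 2-fold lower, with a summed level of 129.9 FPKM in the intact library and 8.30 in protoplasts. The 3 suberized endodermis markers past the floor, of 5, were also lower, with sums of 217.9 and 13.96 and CYP86A1 and FAR1 listed at 0 in protoplasts. Of 10 endodermis markers, 3 were lower, near the share of all genes, and none higher, with sums of 2592 and 1379. All 4 mitosis and all 4 DNA replication markers past the floor were lower, and 2 of 3 root cap markers were higher, with sums of 28.1 and 105.5. Of 6 non-hair markers, 2 were higher and 0 lower, with a median log2 ratio of 0.46, not centred. Of the 9 members highest in the non-hair-like nucleus cluster, only PIP1-4 was at least 2-fold higher as deposited. After centring, PIP2-7, TIP2-1 and NIP1-1 were so too, while 17.4% of all genes were 2-fold higher by that measure. TIP1-2 and PIP1-5 were 2.51-fold and 2.26-fold lower as deposited, though within 2-fold after centring. PIP2-4, TIP4-1 and NIP5-1 lay within 2-fold either way. PIP2-6, also higher after centring, had its highest nucleus value, 0.288, in cluster 12. The xylem markers had a median log2 ratio of 0.69. Of 11 root hair markers 3 were lower and 1 higher, both near the shares of all genes. NIP1-2 was highest in the suberized endodermis-like nucleus cluster, and TIP2-2 in cluster 15, which had no name. Cluster 15 held the highest value of 1 suberized endodermis marker, ASFT, and of 1 pericycle marker, BOR1. The other 4 suberized endodermis markers were highest in cluster 14, and the pericycle markers NPF7.3, PHO1 and HKT1 in cluster 18. In those clusters TIP2-2 was at 0.498 and 1.07. ASFT was at 203.6 and 13.8 FPKM in intact tips and protoplasts, and BOR1 at 44.8 and 4.17 FPKM. The other members highest in cluster 15, PIP1-1, PIP2-1 and PIP2-2, were 2.29-fold, 1.68-fold and 2.54-fold lower in protoplasts, and none of them was 2-fold lower after centring. The part of cell composition in these members' values was not tested.

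**Figure D4:**
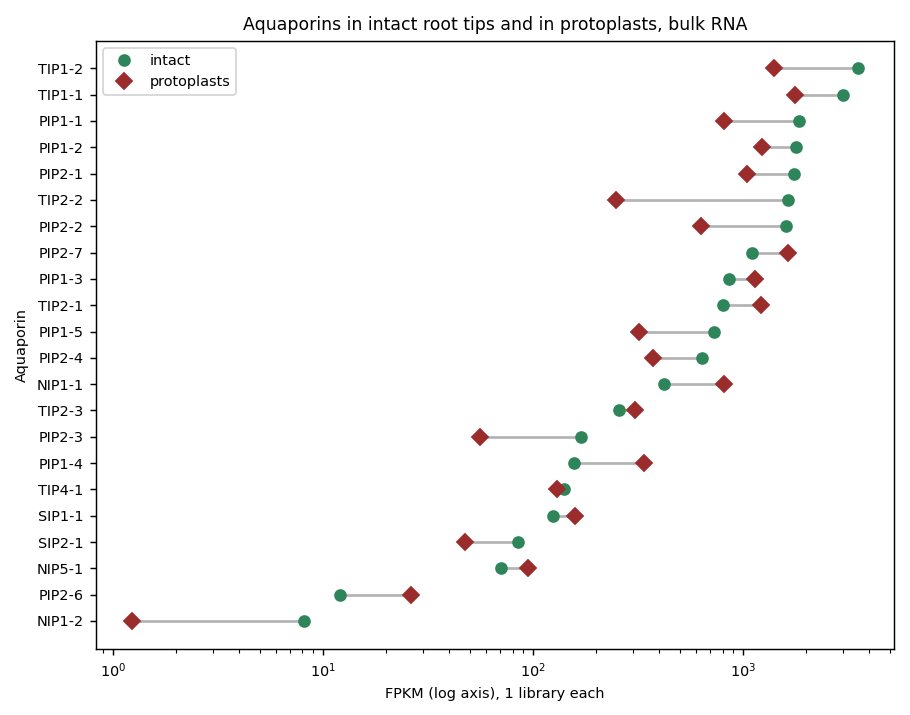
FPKM on a log axis of the 22 aquaporins at 5 FPKM or more in intact root tips (circles) and protoplasts (diamonds), 1 library each, with genes ordered by the intact value. The longest lines are those of TIP2-2, from 1629 to 249.9, and NIP1-2, from 8.11 to 1.24.

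Chromatin over the aquaporin genes was compared with their RNA in the 21 clusters of the same number. RNA and accessibility came from different libraries, and the match of their cluster numbers was not tested. Accessibility is the average signal per region, scaled to 10000 per cluster, and coordinates are those of the deposited table. The 34 regions had a median width of 5014.5 bp, against 1715 bp for all regions, and overlapped a median of 3 genes, so the signal cannot be assigned to the aquaporin alone. PIP2-2 and PIP2-3 lay in 1 region (chr2:15611336-15623337). NIP4-1 and NIP4-2 had none.

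Over 25 members past the RNA floor with a region, the Spearman rho of accessibility and RNA over clusters had a median of 0.43 and was above 0 for 23. Over all 12922 such genes the median was 0.30 and 10165 were above 0. A rho of 0.5 or more was found for 11 members, against 27.9% of genes. These values are descriptions, and within RNA or accessibility the clusters share libraries and depth. The TIPs had the highest subfamily median, 0.70 over 6 genes, followed by 0.46 over 4 NIPs, 0.39 over 3 SIPs and 0.30 over 12 PIPs. With only regions that overlap at most 1 other gene, 8 members were left and their median was 0.30, against 0.32 for all genes under that limit, so the members were then no higher than all genes.

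NIP5-1 had the highest rho, 0.90. Its region (chr4:6429960-6437543) had a signal of 0.778 in cluster 16, 0.720 in cluster 6 and 0.669 in cluster 15, its 3 highest RNA clusters, and 0.13 in cluster 19. TIP1-2 had a rho of 0.84, with signals of 0.697 in cluster 1 and 0.678 in cluster 6, and 0.202 in cluster 9, where its RNA was lowest. TIP2-1 had 0.72, with 0.748 in cluster 6, its highest RNA cluster. At the other end PIP1-3 had -0.49, within a region of 17263 bp over 7 genes, and PIP1-4 had -0.36.

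Signal and RNA peaked together for 9 of 25 members, against 21.1% of all genes past the floor with a region. They included PIP1-1 and PIP2-1 in cluster 15, PIP2-7 and TIP2-1 in cluster 6, NIP6-1 in cluster 19 and NIP1-2 in cluster 14. The 2 regions of PIP2-8 (chr2:7300718-7301822 and chr2:7303249-7304691) had signals of 1.54 and 1.82 in the mitosis cluster 10, where its RNA was highest, 1.06 and 1.28 in cluster 17, and medians of 0.407 and 0.373. Its rho was still 0.26. For PIP2-5 the signal in the xylem-like cluster 21, its RNA cluster, was 0.508, below 0.732 in cluster 14 and 0.681 in cluster 17. NIP1-1, highest in RNA in cluster 6, had its highest signal in cluster 7, at 1.25, against 0.750 in cluster 6. Members with little or no RNA also had signal: the region of TIP5-1 (chr3:17482534-17483572), which overlaps another gene too, had 1.4996 in cluster 9.

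**Figure D5:**
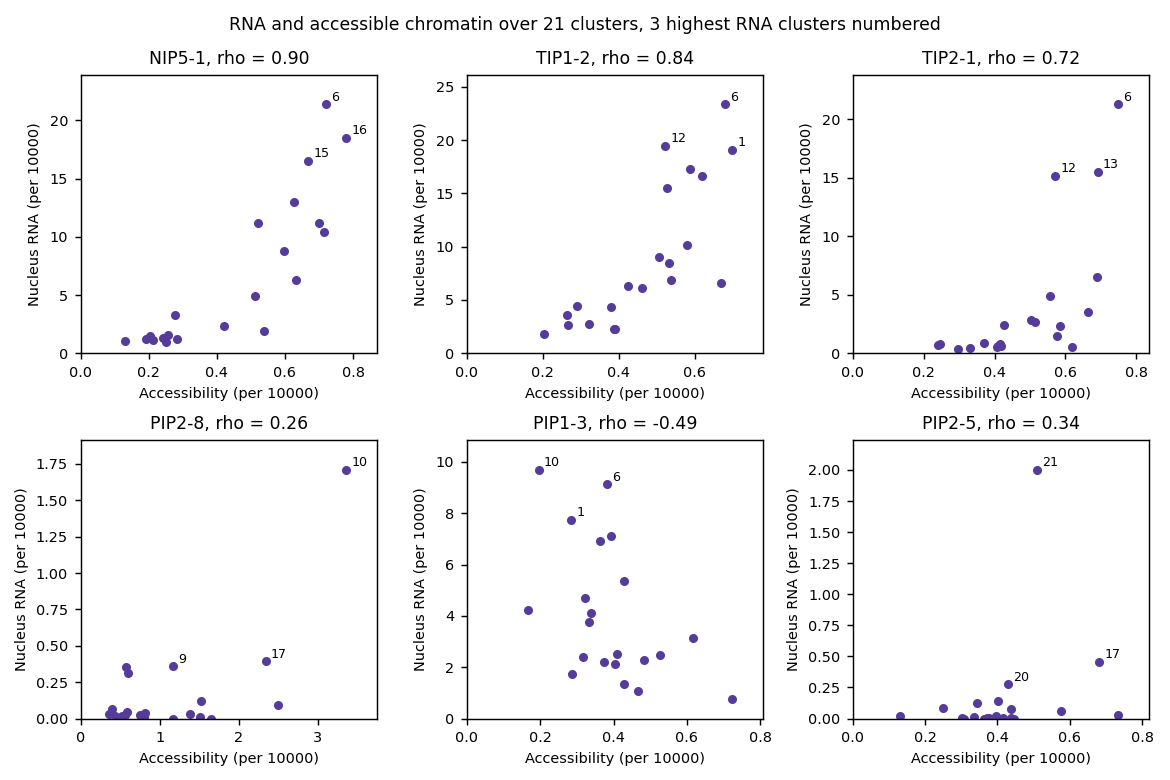
Nucleus RNA level (vertical, per 10000) against summed accessibility of the overlapping regions (horizontal, per 10000) for 6 aquaporins, with 1 point per cluster and the 3 clusters of highest RNA numbered. Points rise together for NIP5-1 (rho 0.90), while PIP2-8 (rho 0.26) has 1 far point, cluster 10, and PIP1-3 (rho -0.49) slopes down.

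Genes that energise, accompany or regulate these channels were described in the same way. The 7 listed proton pump genes, which power transport across the plasma membrane and the vacuole membrane, were all past the floor in nuclei, against 56% of all genes. None was highest in cluster 6, where 4.55% of all genes past the floor were. With so small a share, none of 7 says little. AHA2 (AT4G30190), the main root plasma membrane pump, was highest in the root hair-like cluster 1, at 20.6, as was VHA-A (AT1G78900), the catalytic subunit of the vacuolar pump, at 9.84. In bulk AHA2 had 682 FPKM when intact and 487 as protoplasts, and VHA-A had 442 and 630. None of the 7 differed 2-fold, while 30.3% of all genes were lower and 11.4% higher. Set against nuclei, 1 was higher in whole cells, against 20.2% of all genes, and 3 were lower, against 43.6%. Of 8 boron and ammonium transporter genes, 7 were past the nucleus floor, and AMT1;1 (AT4G13510) was highest in cluster 6, at 2.17. In bulk 4 of 7 past the floor were lower, against 30.3% of all genes, and none higher, against 11.4%, with a median log2 ratio of -1.32. AMT1;1 was at 65.9 and 108.5 FPKM in intact tips and protoplasts, and the boron transporter gene BOR2 (AT3G62270) at 63.1 and 48.0. The ammonium transporter gene AMT1;2 (AT1G64780) was at 46.7 and 0.0199. The boron exporter gene BOR1 (AT2G47160) was at 44.8 and 4.17, and was highest in nucleus cluster 15 (2.20), where NIP5-1 was at 16.5.

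Of 14 genes for aquaporin trafficking and modification, 11 were past the nucleus floor, against 56% of all genes. None of those was highest in cluster 6, where only 4.55% of all genes past the floor were, so that count says little. In bulk 2 of 14 were lower and 3 were higher, against 30.3% and 11.4% of all genes. The 2 lower were OMTF3 (AT3G61990), at 100.7 and 26.6 FPKM, and the kinase gene OST1 (AT4G33950), at 8.19 and 3.49. The most abundant, VAP27-1 (AT3G60600), was at 146.0 and 139.9 FPKM, and VAMP721 (AT1G04750), a membrane fusion gene, at 118 and 98.6. RMA1 (AT4G03510), a ubiquitin ligase gene whose relative in pepper acts on PIP2-1, was at 16.1 and 119 FPKM. TSPO (AT2G47770), whose protein binds PIP2-7 for degradation, was at 3.33 and 19.5. The membrane fusion gene SYP121 (AT3G11820), which delivers PIPs to the plasma membrane, was at 42.0 and 93.3. In the whole-cell comparison 4 of 9 past the floor were higher, against 20.2% of all genes, and 1, OMTF3, was lower, against 43.6%. TSPO was at 3.12 in whole-cell cluster 21 and did not exceed 0.0608 in nuclei.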

How the data were processed

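Bulk values are deposited by the authors with no unit in the header and were read as FPKM, because they are fractional, have unequal column sums and run to tiny values. The 3 cluster tables hold 1 average signal per gene or region and cluster, as deposited. RNA columns sum to 10000 and accessibility columns to between 10532 and 14125, and each was scaled to 10000. Per the submitters' processing notes, the tools included TopHat2 2.0.11, Bowtie2 2.1.0 and Seurat 3.1.5, with Signac 0.2.5, Cell Ranger ATAC 1.2 and Cell Ranger 3.1.0, on TAIR10. The treatment of doublets, the filters on UMIs and the depth are not given in the sources used here. Replicates are pooled, so no test was run.

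Ratios are log2(FPKM + 1) at a floor of 5 FPKM, and log2(mean + 0.1) at a floor of 0.5 per 10000, over all genes. A region counted for a gene at an overlap of 1 bp, by the RefSeq TAIR10.1 gene table. The tools were pandas 2.3.3, NumPy 2.4.6 and Matplotlib 3.10.9 on Python 3.11.15. The bulk fold call, the leading cluster call and the rank correlation were first tested on simulated data. Region overlaps were checked on part of the real regions against a slower direct search. The other steps had no such test. The members, the 12 marker lists, the 3 lists of other genes and the rule for named genes were chosen with earlier results of these data known. Members at 1 per 10000 or 5 FPKM are given in full, the rest by range, and the genes of the other lists were named by level, with AMT1;2, BOR1, RMA1, TSPO and SYP121 chosen after their values were seen.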

Additional observations from a re-analysis of the deposited data

How the results depend on the processing

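No paired analysis was possible because the libraries are pooled in the cluster tables and each bulk group has 1 library. Of 40 alternatives, 28 were counted as the same and 12 as a move, with lower and higher counts taken separately. An alternative counted as the same could still shift a value by a small amount. The bulk count of 7 lower was 9 with no floor and 6 at a floor of 20 FPKM. The nucleus count of 26 past the floor was 22 at a floor of 1 per 10000. The accessibility median was 0.52 with Pearson's r of log2 values. Centring on the median gene moved the bulk counts from 7 lower and 2 higher to 3 and 5, so that their balance turned, and the whole-cell count of higher members from 6 to 11. The whole-cell count of 1 lower member became 3 with no floor and 2 with medians over clusters. The 2 members that stood 4-fold above every other cluster became 4 at 2-fold and 0 with 0.1 per 10000 added. The highest TIP cluster moved from 6 to 1 without TIP1-2 and with members scaled to their own highest cluster. The scaled means were highest in cluster 14 for NIPs, in place of 6, and in cluster 14 for SIPs, in place of 1, since low members then count as much as high ones. The accessibility median of 0.43 was 0.30 over regions with at most 1 other gene, where that of all genes was 0.32, an alternative chosen after seeing the data, as were 2 others, and a change of 0.1 was counted as a move. The alternatives on the bases before a gene's start were not run, because the gene table gives no strand. Values near 0 in a cluster rest on an unknown number of nuclei or cells, which limits every pattern of a low member.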
